A study of Homo sapiens with 12 samples.

Results

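The heat shock proteins and their DNAJ co-chaperones were examined in HK-2 cells, an immortalised line of human proximal tubule epithelium, after exposure to S100A8, S100A9 or S100A8/S100A9. Genes were taken by name: the protein-coding HSPA, HSPB, HSP90, DNAJA, DNAJB and DNAJC families together with HSPD1, HSPE1, HSPH1, HSF1, HSF2, BAG3 and FKBP4. This gave 76 genes of the 20286 in the deposited table. From textbook knowledge 48 were placed in the cytosol and nucleus, 13 in the endoplasmic reticulum (ER) and 8 in the mitochondrion, and 7 were left without a place. The first group of 3 libraries came from cells given recombinant S100A8, the second from cells given recombinant S100A9 and the third from cells given recombinant S100A8/S100A9. The dose reads 5 mg/mL in the labels, and no other source here gives its unit. The control group of 3 libraries came from cells given a matching volume of phosphate-buffered saline (PBS). All 12 libraries came from a single cell line of labelled wild-type genotype, held for 48 h in DMEM with fetal bovine serum. The labels do not tell whether replicates were separate cultures, so every p-value below reflects only the scatter among these libraries, which may be technical.

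Chaperones bind unfolded or partly folded proteins and keep them from aggregating. HSP70 proteins work in cycles of ATP hydrolysis that DNAJ proteins start and that HSP110 proteins and BAG-domain proteins reset, HSP90 proteins act later on near-native clients such as kinases and steroid receptors, and small heat shock proteins hold unfolded proteins without ATP. In stressed cells the transcription factor HSF1 trimerises, binds heat shock elements and raises cytosolic chaperones, whereas misfolding in the ER raises HSPA5, HSP90B1 and the ER DNAJ proteins through ATF6 and XBP1. S100A8 and S100A9, made mainly by neutrophils and monocytes, bind calcium, form the calprotectin complex and can signal through TLR4 and RAGE.

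Promoters of several abundant members carry the letters that these pathways read. Stretches with a match are shown to let the heat shock letters of cytosolic members be set beside the ER stress letters of ER members, a feature the choice of genes did not use. Windows of 250 bases before to 50 bases after each start came from RefSeq on GRCh38.p14, and 67 of the 76 genes had at least 1. A pair of facing heat shock units was searched as TTCNNGAA or GAANNTTC, which are their own reverse complements, and the ER stress element, which is CCAAT and CCACG with 9 bases between them, on both strands. In the stretches below, read 5′ to 3′ on the strand of the gene, capitals mark these matches. HSPA1A lies at chr6:31815417-31815464 (plus strand), HSPA1B at chr6:31827613-31827660 (plus strand), HSP90AA1 at chr14:102087085-102087152 (minus strand) and HSP90AB1 at chr6:44247758-44247863 (plus strand). DNAJB1 lies at chr19:14518417-14518494 (minus strand), HSPB1 at chr7:76302471-76302518 (plus strand) and HSPA8 at chr11:123062159-123062386 (minus strand). The ER members HSPA5 and HSP90B1 lie at chr9:125241371-125241429 (minus strand) and chr12:103930196-103930359 (plus strand).
HSPA1A: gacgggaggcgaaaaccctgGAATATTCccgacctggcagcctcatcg
HSPA1B: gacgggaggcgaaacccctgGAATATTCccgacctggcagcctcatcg
HSP90AA1: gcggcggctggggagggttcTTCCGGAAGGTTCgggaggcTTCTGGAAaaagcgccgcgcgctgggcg
HSP90AB1: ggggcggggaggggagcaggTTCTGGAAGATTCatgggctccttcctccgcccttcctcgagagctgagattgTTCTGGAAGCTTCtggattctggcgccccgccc
DNAJB1: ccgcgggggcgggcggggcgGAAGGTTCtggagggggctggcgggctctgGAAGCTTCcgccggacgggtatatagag
HSPB1: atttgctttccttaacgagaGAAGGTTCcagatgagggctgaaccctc
HSPA8: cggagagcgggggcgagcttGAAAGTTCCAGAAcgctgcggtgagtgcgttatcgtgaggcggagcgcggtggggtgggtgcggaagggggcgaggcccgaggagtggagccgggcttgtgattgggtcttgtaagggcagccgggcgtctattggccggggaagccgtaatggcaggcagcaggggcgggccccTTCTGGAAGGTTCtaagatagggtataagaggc
HSPA5: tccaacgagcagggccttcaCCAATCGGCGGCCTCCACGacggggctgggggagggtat
HSP90B1: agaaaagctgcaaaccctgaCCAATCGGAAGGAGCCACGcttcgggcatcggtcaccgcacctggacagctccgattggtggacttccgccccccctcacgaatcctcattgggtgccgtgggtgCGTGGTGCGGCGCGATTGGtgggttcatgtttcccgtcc

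The heat shock pair stood in a window of 19 of 42 cytosolic and nuclear genes (45.2%), 0 of 12 ER genes, 3 of 8 mitochondrial genes and 0 of 5 genes without a place. Over all 15339 genes of the table with a window the share was 14.9%. The ER stress element stood in the windows of 2 of 12 ER genes, HSPA5 and HSP90B1, against 0.137% of all genes. Overlapping copies of the heat shock letters are printed as one run of capitals, as in HSP90AB1, HSP90AA1 and HSPA8. The HSPA1L window overlaps that of HSPA1A on the other strand. Windows of BAG3, HSPH1, HSPA2, HSF2, HSPE1, DNAJA3, DNAJB9, DNAJB11 and DNAJC3 held neither motif. A window of HSPD1, the neighbour of HSPE1, held heat shock pairs within chr2:197500048-197500090. That stretch lies outside the HSPE1 window, which begins at base 197500129. A match is a count of letters and not evidence that a factor binds there.

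Levels are given first as FPKM, the authors' reads scaled to gene length and library total, since this is the scale on which genes can be set side by side. The summed mean level of the 76 genes was 4491 FPKM, and HSP90AB1, HSP90AA1 and HSPA8 made up 37.2% of it. Mean levels were at least 100 FPKM in 12 genes, from 10 to under 100 in 35, from 1 to under 10 in 16 and under 1 in 13. The genes held between 1.11% and 1.18% of all counts in a library. Among the 47 genes of at least 10 FPKM the median coefficient of variation over all 12 libraries was 4.41% on the scale of CPM, counts scaled to library totals after TMM normalisation, and 4.72% on that of FPKM. DNAJB14, an ER-membrane DNAJ protein, was the single one whose FPKM moved against its CPM by more than 1.3-fold, with FPKM from 15.5 to 32.4.

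The cytosolic HSP90 pair stood at the top. HSP90AB1, the constitutive form, had 587, 636 and 631 FPKM after S100A8, 617, 611 and 629.8 after S100A9, 612, 598 and 610.0 after S100A8/S100A9 and 619, 618 and 614 with PBS. HSP90AA1, the stress-inducible form, had 515, 529.9 and 549 FPKM after S100A8, 567, 534 and 568 after S100A9, 536, 529 and 552 after S100A8/S100A9 and 545, 534 and 554 with PBS. Both varied little, and the S100A8 and S100A9 libraries overlapped the PBS libraries for each. The S100A8/S100A9 libraries lay just below PBS for HSP90AB1 in FPKM but overlapped it in CPM. FKBP4, an immunophilin that joins HSP90 to steroid receptors, had 32.3, 33.1 and 34.2 FPKM after S100A8, 35.6, 32.0 and 35.0 after S100A9, 33.7, 30.5 and 36.0 after S100A8/S100A9 and 34.8, 33.6 and 33.7 with PBS. Each treated group overlapped PBS.

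Of the HSP70 proteins, HSPA8, the constitutive form, was the third highest of all 76 genes. It had 501, 488 and 513 FPKM after S100A8, 541, 494 and 538 after S100A9, 509, 489.6 and 507 after S100A8/S100A9 and 515, 505 and 533 with PBS. No treated group stood clear of PBS. The stress-inducible HSPA1A had 66.2, 70.8 and 70.1 FPKM after S100A8, 79.5, 73.0 and 84.6 after S100A9, 71.4, 63.9 and 71.9 after S100A8/S100A9 and 77.2, 70.6 and 81.5 with PBS. HSPA1B, its neighbour on chromosome 6, had 51.2, 59.3 and 59.8 FPKM after S100A8, 57.4, 58.0 and 64.0 after S100A9, 56.6, 51.4 and 54.9 after S100A8/S100A9 and 55.9, 58.6 and 66.7 with PBS. The S100A9 libraries lay above the S100A8 and S100A8/S100A9 libraries for HSPA1A, and every treated group overlapped PBS for both genes. HSPA1A and HSPA1B share 1666 of the 2384 windows of 100 bases in the HSPA1A transcript (69.9%), so the split of reads between them depends on the authors' counting, which is not given in the sources used here. HSPA6, which human cells switch on under strong stress, was near the detection floor with 0.22 FPKM on average and 0.365, 0.116 and 0.697 CPM after S100A8, 0.702, 0.566 and 0.549 after S100A9, 0.631, 0.718 and 0.733 after S100A8/S100A9 and 0.525, 0.313 and 0.453 with PBS. Its S100A9 and S100A8/S100A9 libraries lay above the PBS libraries in both units, on at most 14 counts in a library, and neither difference passed the test below. HSPH1, the stress-inducible HSP110 that exchanges nucleotide on HSP70, had 67.4, 66.2 and 68.1 FPKM after S100A8, 74.4, 65.3 and 72.9 after S100A9, 77.8, 64.2 and 72.4 after S100A8/S100A9 and 72.3, 63.9 and 72.1 with PBS. The lowest HSPH1 library of S100A9, S100A8/S100A9 and PBS lay well under the other 2 of its group.

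Among the DNAJ proteins of the cytosol, DNAJA1, a farnesylated co-chaperone of HSPA8, had 99.9, 101 and 110.0 FPKM after S100A8, 113, 104 and 112 after S100A9, 103, 101 and 106 after S100A8/S100A9 and 105, 101 and 110.4 with PBS. DNAJB1, the main stress-inducible DNAJ protein, had 70.7, 66 and 70.2 FPKM after S100A8, 74.2, 68.8 and 70.5 after S100A9, 73.5, 71.2 and 69.7 after S100A8/S100A9 and 72.4, 71.8 and 76.9 with PBS. In FPKM the S100A8 libraries of DNAJB1 lay below the PBS libraries, and in CPM they overlapped them. DNAJC8, a nuclear protein linked to splicing, and DNAJB6, which suppresses aggregation, were the highest DNAJ genes with means of 122 and 114 FPKM.

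HSPB1 (HSP27), which guards actin and unfolded proteins, was the highest small heat shock gene and had 259.8, 259.9 and 261 FPKM after S100A8, 256, 270.5 and 280.4 after S100A9, 274, 275 and 272 after S100A8/S100A9 and 258, 270.3 and 283 with PBS. BAG3, which hands clients of HSP70 and HSPB8 to autophagy, had 19.0, 20.3 and 20.4 FPKM after S100A8, 18.9, 19.7 and 20.3 after S100A9, 21.8, 20.9 and 19.98 after S100A8/S100A9 and 19.4, 20.2 and 21.1 with PBS. HSPB8, its small heat shock partner, had 39.5, 38.3 and 39.4 FPKM after S100A8, 41.3, 44.2 and 45.6 after S100A9, 42.2, 40.9 and 40.7 after S100A8/S100A9 and 41.1, 38.9 and 41.0 with PBS. HSPB8 stood higher after S100A9 than after S100A8 or with PBS in every library, whereas HSPB1 and BAG3 overlapped PBS in each treated group. The regulator HSF1 had 31.9, 30.0 and 29.6 FPKM after S100A8, 31.8, 33.8 and 30.4 after S100A9, 32.4, 30.9 and 31.2 after S100A8/S100A9 and 29.6, 30.5 and 29.6 with PBS. HSF2, its relative, had 19.4, 19.3 and 18.3 FPKM after S100A8, 17.9, 17.9 and 17.2 after S100A9, 19.4, 18.9 and 18.4 after S100A8/S100A9 and 17.5, 19.3 and 19.0 with PBS. HSF1 lay above PBS after S100A8/S100A9 in FPKM and after S100A9 in CPM, each time by a margin that the other unit did not show.

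In the ER, the HSP90 member HSP90B1 (GRP94) had 245, 257 and 249 FPKM after S100A8, 248, 249 and 249 after S100A9, 240.4, 251 and 250.2 after S100A8/S100A9 and 240.0, 249.6 and 237 with PBS. In CPM its S100A9 libraries lay above PBS, with 669, 673 and 675 CPM after S100A9, against 648, 666 and 641 CPM with PBS, and in FPKM they overlapped it. HSPA5 (BiP), the ER HSP70 and sensor of misfolding, had 157, 182 and 173 FPKM after S100A8, 162, 179 and 168 after S100A9, 158, 163 and 161 after S100A8/S100A9 and 166, 179.8 and 166 with PBS. The S100A8/S100A9 libraries of HSPA5 lay below the PBS libraries in both units, with a log2 difference of -0.07 (95% interval -0.17 to 0.03; unadjusted p = 0.137 and adjusted p = 0.898). DNAJB11, which binds unfolded proteins with HSPA5, had 55.8, 60.2 and 60.8 FPKM after S100A8, 64.2, 59.2 and 61.1 after S100A9, 58.4, 60.7 and 58.2 after S100A8/S100A9 and 63.2, 61.8 and 60.2 with PBS. DNAJB9, which brings HSPA5 to the stress sensor IRE1, had 18.5, 16.4 and 16.5 FPKM after S100A8, 17.6, 20.8 and 18.6 after S100A9, 17.2, 17.0 and 19.2 after S100A8/S100A9 and 19.2, 18.0 and 16.6 with PBS. DNAJC3, the ER protein known as P58IPK, had 13.1, 12.1 and 13.3 FPKM after S100A8, 12.7, 13.4 and 12.8 after S100A9, 12.5, 13.0 and 14.1 after S100A8/S100A9 and 13.2, 12.7 and 12.4 with PBS. For these 3 genes each treated group overlapped PBS.

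In the mitochondrion, HSPD1 (HSP60), the barrel of the folding chamber, had 316, 351 and 349 FPKM after S100A8, 328, 335 and 341 after S100A9, 321, 329.9 and 324 after S100A8/S100A9 and 323, 346 and 337 with PBS. HSPE1 (HSP10), its lid, had 133, 86.9 and 123 FPKM after S100A8, 141, 123 and 129 after S100A9, 113, 136 and 105 after S100A8/S100A9 and 99.7, 92.1 and 116 with PBS. All 3 S100A9 libraries of HSPE1 lay above the 3 PBS libraries, while the S100A8 libraries spread wider than any other group. HSPD1 and HSPE1 are transcribed away from each other on chromosome 2 from starts 105 or 539 bases apart in RefSeq, yet the coefficient of variation over the 12 libraries was 15.2% for HSPE1 in CPM and 3.34% for HSPD1. HSPE1 also shares exons with the readthrough gene HSPE1-MOB4. HSPA9 (mortalin), which pulls proteins through the inner membrane, had 128, 143 and 144 FPKM after S100A8, 128, 132 and 133 after S100A9, 137, 134 and 131 after S100A8/S100A9 and 136, 145 and 128 with PBS. DNAJA3, its DNAJ partner, had 24.6, 27.5 and 25.4 FPKM after S100A8, 24.9, 23.5 and 23.7 after S100A9, 24.7, 30.6 and 22.7 after S100A8/S100A9 and 25.6, 22.9 and 23.0 with PBS. Neither separated any treated group from PBS.

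Other members are given by their mean and range over the 12 libraries. HSPA4, the constitutive HSP110, averaged 59.4 FPKM (55.0 to 63.5), and HSPA4L 13.6 FPKM (12.1 to 15.1). DNAJA2, a relative of DNAJA1, averaged 47.3 FPKM (45.0 to 48.6), DNAJC7, which bridges HSP70 and HSP90, 51.2 FPKM (49.3 to 53.6) and DNAJC9, a chaperone of histones, 39.3 FPKM (37.0 to 42.5). All of these had at least 10 FPKM in every library. DNAJC13, a protein of endosomes, averaged 25.0 FPKM (23.4 to 26.3) and DNAJC5, the cysteine string protein of vesicles, 21.9 FPKM (20.8 to 23.3). DNAJB2, known from neurons, averaged 24.1 FPKM (21.6 to 26.9) and DNAJB4 12.4 FPKM (11.2 to 13.7).

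In the ER, DNAJC10 (ERdj5), a disulfide reductase that works with HSPA5, averaged 74.7 FPKM (68.5 to 85.8), and HSPA13, an HSP70 relative without a substrate-binding domain, 45.1 FPKM (40.5 to 48.2). The ER-membrane protein DNAJB12 averaged 15.2 FPKM (13.3 to 15.9), and DNAJC1, DNAJC14, DNAJC16 and DNAJC18 each averaged under 13 FPKM. In the mitochondrion, DNAJC11 averaged 27.9 FPKM (26.2 to 29.2) and DNAJC19, of the import motor, 22.1 FPKM (19.0 to 25.7), while DNAJC15, the other member of that motor, had no count. The HSP70 genes HSPA2, HSPA12A and HSPA12B averaged 8.78, 5.33 and 2.75 FPKM, and HSPA1L, which neighbours HSPA1A and is known from testis, 0.759 FPKM. Of the small heat shock genes among the members only HSPB1, HSPB8 and HSPB2 (mean 2.11 FPKM) passed the filter on low counts. HSPB3, HSPB6, HSPB7 and HSPB9, known mainly from muscle and testis, averaged at most 0.143 FPKM. CRYAB, a small heat shock gene that the choice by name did not take, averaged 27.5 FPKM (24.0 to 32.9).

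**Figure D1:**
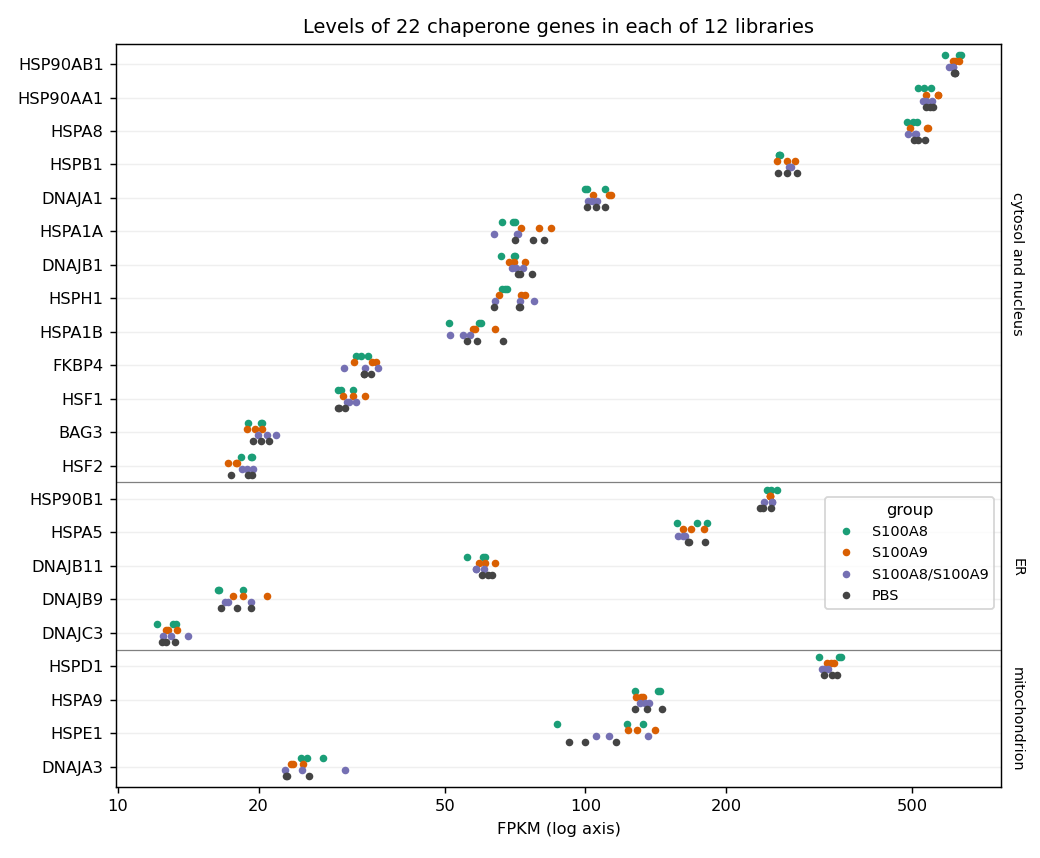
Level of the 22 genes named in every library, in FPKM on a log axis, with 1 point per library and the groups S100A8, S100A9, S100A8/S100A9 and PBS from top to bottom within each gene. The groups lie on top of one another for most genes, and HSPE1 has the widest scatter, from 86.9 to 141 FPKM.

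Of the 76 genes 66 had enough counts to test. The other 10 were HSPB6, DNAJB13, DNAJC5B, DNAJC5G, DNAJA4, HSPB7, HSPB9, DNAJB8, HSPB3 and DNAJC15, with mean levels of at most 0.207 CPM. HSPB3 and DNAJC15 had 0 counts in all 12 libraries. In the library of lowest depth alone, a count of 0 cannot exclude levels up to 0.189 CPM, and the 12 together bound a common level more tightly. Each comparison was made with edgeR's quasi-likelihood test across 13512 genes at an adjusted p of 0.05. In RNA from whole cultures, fewer cells expressing a gene and less RNA per cell cannot be told apart. The 3 comparisons with PBS share its 3 libraries, and comparisons between treated groups share those of the groups.

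S100A8 was set against PBS to ask whether this subunit moves the chaperones. No member passed the test: 0 of 66 were called, against 0.0074% of all genes tested (1 gene). At an unadjusted p under 0.05 there were 3 of 66 members, against 3.53% of all genes, and DESeq2 and limma called 0. The members among these were DNAJC18, HSPA4L and HSPA1A. DNAJC18, a DNAJ protein of the ER membrane, had 13.6, 13.0 and 11.7 CPM after S100A8, against 14.8, 15.9 and 14.3 CPM with PBS, a log2 difference of -0.24 (SE 0.10; adjusted p = 1.00). HSPA4L, an HSP110 protein, averaged 62.9 ± 1.16 CPM after S100A8 and 68.2 ± 1.14 CPM with PBS (SD, n = 3 each). HSPA1A had a log2 difference of -0.15 (95% interval -0.27 to -0.02). The 3 S100A8 libraries stood above the 3 PBS libraries for 1 member (1.52%) and below them for 5 (7.58%), against 4.41% and 4.13% of all genes. Among members of at least 5 CPM the lowest log2 differences were those of DNAJC18, above, and DNAJC30, a mitochondrial DNAJ protein, with -0.16. The highest were those of DNAJC6 (auxilin), which strips clathrin coats with HSPA8, with 0.15 and HSPE1 with 0.15.

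S100A9 alone gave 0 calls of 66, against 0.148% of all genes (20 genes). At an unadjusted p under 0.05 there were 2 of 66 members, against 5.85% of all genes, and DESeq2 and limma again called 0. DNAJC22, a membrane protein of the DNAJ family whose fly counterpart acts in endocytosis, came closest. It had 11.9, 13.1 and 12.4 CPM after S100A9, against 14.5, 19.0 and 15.9 CPM with PBS. Each S100A9 library lay below each PBS library, with a log2 difference of -0.39 (SE 0.10; unadjusted p = 0.000737, adjusted p = 0.192). HSPB8 was the other member, with 77.1, 82.7 and 84.9 CPM after S100A9, against 76.4, 72.0 and 76.1 CPM with PBS, a log2 difference of 0.12 and an adjusted p of 0.712. HSPE1 had the largest positive difference of members with at least 5 CPM, a log2 fold change of 0.36 whose 95% interval was -0.03 to 0.74 (adjusted p = 0.857). The S100A9 libraries stood above PBS for 7 members (10.6%) and below it for 3 (4.55%), against 6.25% and 5.77% of all genes.

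S100A8/S100A9 gave 0 calls of 66, as it did over all genes (0% called). At an unadjusted p under 0.05 there were 5 of 66 members, all lower, against 5.6% of all genes, and DESeq2 and limma called 0. They were HSPA4L, DNAJC22, DNAJC17, HSPA1A and DNAJC18. HSPA4L averaged 62.1 ± 3.52 CPM after S100A8/S100A9 and 68.2 ± 1.14 CPM with PBS (SD, n = 3 each), a log2 difference of -0.13 and an adjusted p of 0.831. DNAJC17, a nuclear protein tied to splicing, had 6.21, 6.04 and 6.75 CPM after S100A8/S100A9, against 6.48, 8.96 and 8.04 CPM with PBS, and its groups overlapped. HSPA12B, a distant HSP70 relative, had 9.36, 8.98 and 9.58 CPM after S100A8/S100A9, against 8.69, 8.02 and 8.61 CPM with PBS, a log2 difference of 0.14 (adjusted p = 0.899). All 3 S100A8/S100A9 libraries of HSPA12B lay above the PBS libraries. The treated libraries stood above PBS for 5 members (7.58%) and below it for 3 (4.55%), against 5.3% and 5.4% of all genes.

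A p that misses the threshold does not show that a gene was the same, so the intervals are given. For 21 of the 22 named genes the whole 95% interval lay within 1.3-fold of PBS in each of the 3 treated groups. Without HSPE1 the farthest bound reached 1.21-fold after S100A8 (HSPA1A), 1.18-fold after S100A9 (DNAJB9) and 1.23-fold after S100A8/S100A9 (HSPA1B). HSPE1 was the exception, with bounds up to 1.45-fold, 1.67-fold and 1.51-fold. For the HSF1 target DNAJB1 the log2 differences and 95% intervals were -0.08 (-0.17 to 0.01) for S100A8, -0.03 (-0.12 to 0.06) for S100A9 and -0.03 (-0.12 to 0.06) for S100A8/S100A9. For HSPH1 they were -0.05 (-0.18 to 0.09), 0.04 (-0.10 to 0.17) and 0.05 (-0.08 to 0.19) in the same order. Low members were not bounded as tightly: for HSPA6 the interval reached 3.04-fold after S100A8/S100A9.

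**Figure D2:**
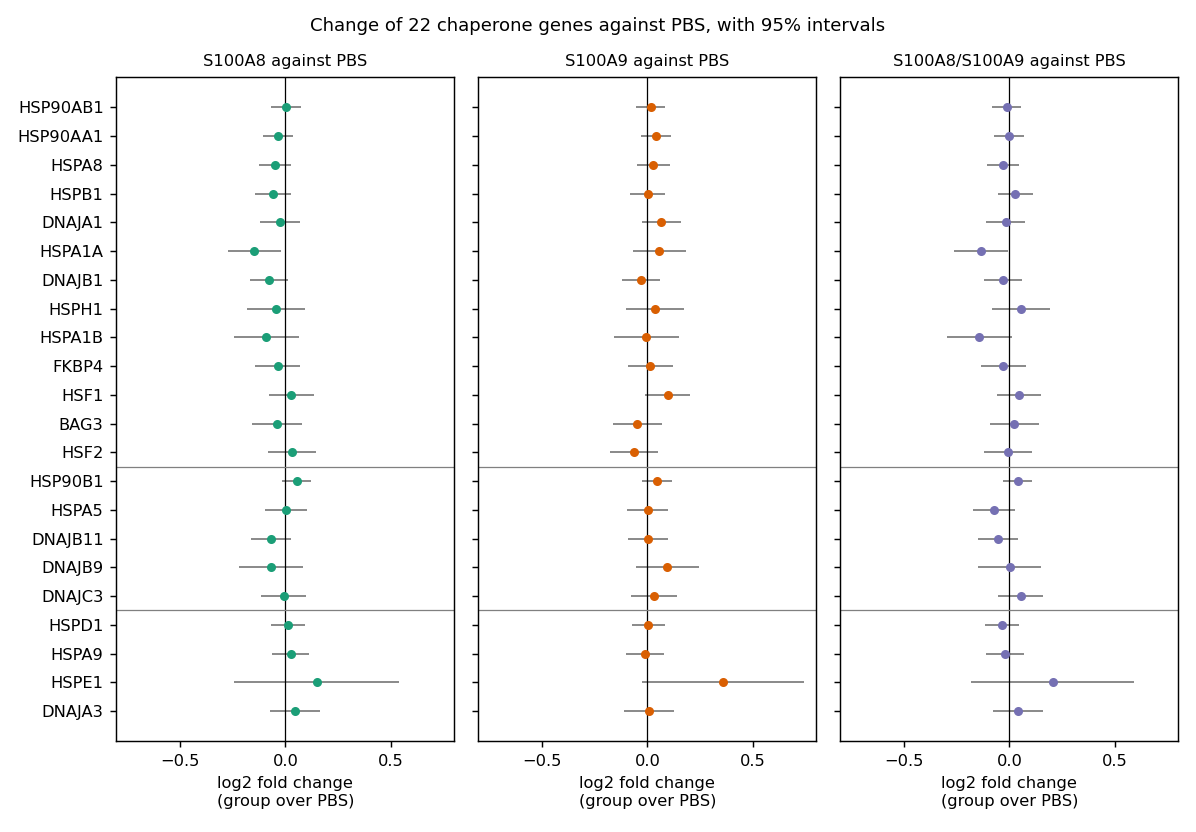
Log2 fold change of the 22 named genes against PBS, with 95% intervals, in panels for S100A8, S100A9 and S100A8/S100A9. Every interval includes 0 except those of HSPA1A after S100A8 (-0.15) and S100A8/S100A9 (-0.14), and HSPE1 has the widest in each panel.

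The compartments were then set side by side. Cytosolic and nuclear genes summed to 3043 ± 63.6 FPKM after S100A8, 3144.0 ± 78.0 after S100A9, 3079.9 ± 55.5 after S100A8/S100A9 and 3119 ± 46.0 with PBS (SD, n = 3 each). ER genes summed to 704 ± 18.8, 699 ± 9.38, 695 ± 22.9 and 696 ± 27.9 FPKM in the same groups. For both compartments each treated group overlapped PBS. Mitochondrial genes summed to 672 ± 23.8 FPKM after S100A8, 675 ± 7.02 after S100A9, 655 ± 25.3 after S100A8/S100A9 and 649.95 ± 15.2 with PBS. The S100A9 libraries, from 668 to 682 FPKM, lay above the PBS libraries, from 632 to 659.6 FPKM, whereas in CPM the sums overlapped (1546 to 1572 after S100A9 and 1499 to 1582 with PBS). Without HSPE1 the sums ranged from 535 to 553 FPKM after S100A9 and from 533 to 567 FPKM with PBS, and overlapped.

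Medians over the tested genes stayed near 0 in each compartment. After S100A8 the median log2 difference from PBS was -0.04 for 41 cytosolic and nuclear genes, of which 13 lay above 0, against 50.2% of all genes tested. It was 0.00 for 13 ER genes, 7 of them above 0, and 0.03 for 7 mitochondrial genes, 6 of them above 0. After S100A9 the medians were 0.01, 0.00 and 0.01, and after S100A8/S100A9 they were 0.03, 0.01 and 0.03. The median over all genes was within 0.01 of 0 in each comparison, and these counts describe the genes without a test.

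**Figure D3:**
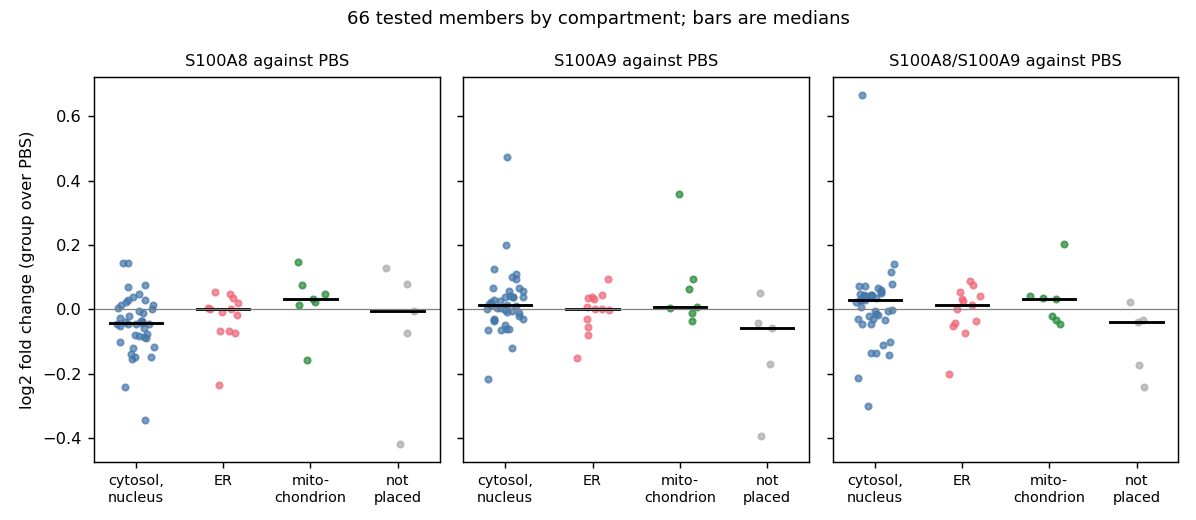
Log2 fold change against PBS of the 66 tested genes, 1 point per gene, by compartment (cytosol and nucleus 41, ER 13, mitochondrion 7, not placed 5), with black bars at the medians. The medians lie between -0.06 and 0.03, and the highest points after S100A9 (0.47) and S100A8/S100A9 (0.67) are HSPA6, a gene near the detection floor.

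Treated groups were compared directly to ask whether the subunits and the S100A8/S100A9 preparation differ. S100A9 against S100A8 gave 0 calls of 66, against 0.185% of all genes (25 genes). At an unadjusted p under 0.05 there were 9 of 66 members, a larger share than the 7% of all genes. DESeq2 and limma called 0. The smallest p was that of HSPB8, with 77.1, 82.7 and 84.9 CPM after S100A9, against 73.4, 70.9 and 73.1 CPM after S100A8. Each S100A9 library was above each S100A8 library, and the log2 difference was 0.17 (SE 0.05; adjusted p = 0.27). HSPA1A followed with 191, 176 and 203 CPM after S100A9, against 158, 169 and 168 CPM after S100A8, again with no overlap, and a log2 difference of 0.20 (SE 0.06; adjusted p = 0.378). HSPA1B had 145, 147 and 161 CPM after S100A9, against 128, 149 and 150.2 CPM after S100A8, and its groups overlapped. Summed over the pair, which removes the question of how shared reads were split, the log2 difference was 0.15 and the adjusted p 0.684. In a fit that also held the replicate number the adjusted p was 0.0217 for HSPA1A and 0.189 for the pair summed. DNAJC22 had 11.9, 13.1 and 12.4 CPM after S100A9, against 15.0, 17.0 and 14.7 CPM after S100A8, a log2 difference of -0.32 (adjusted p = 0.398). DNAJC25-GNG10, a readthrough that shares reads with DNAJC25, differed by -0.18. Of 41 cytosolic and nuclear genes 29 lay above 0, with a median of 0.05, and of 13 ER genes 5 did, with a median of 0.00, against 50.2% of all genes above 0. In all 5 members (7.58%) were higher and 4 (6.06%) lower in every library, against 6.41% and 6.09% of all genes.

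S100A8/S100A9 against S100A9 gave 0 calls of 66, against 0.252% of all genes (34 genes). At an unadjusted p under 0.05 there were 5 of 66 members, against 7.15% of all genes. DESeq2 and limma called 0. HSPA1A had 172, 153 and 173 CPM after S100A8/S100A9, against 191, 176 and 203 CPM after S100A9, and the groups did not overlap. Its log2 difference was -0.19 (SE 0.06; adjusted p = 0.465), and that of the pair summed was -0.16 (adjusted p = 0.571). In the fit that also held the replicate number the adjusted p was 0.0232 for HSPA1A and 0.118 for the pair summed. HSPA1B had 143, 129.5 and 139 CPM after S100A8/S100A9, against 145, 147 and 161 CPM after S100A9, also without overlap, and a log2 difference of -0.14 (adjusted p = 0.74). HSPA12B was higher in every library, with a log2 difference of 0.26, and DNAJC17 lower in every library, with one of -0.32. Neither passed the test. In all 5 members (7.58%) were higher and 3 (4.55%) lower in every library, against 5.94% and 6.53% of all genes.

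S100A8/S100A9 against S100A8 gave 0 calls of 66 and 0% over all genes, with 3 of 66 members at an unadjusted p under 0.05 against 4.43% of all genes. DESeq2 and limma called 0. These were HSPA12B, HSPA4 and HSPB1. HSPB1 had 216, 217 and 215 CPM after S100A8/S100A9, against 203, 203 and 204 CPM after S100A8, a log2 difference of 0.09 (SE 0.04; adjusted p = 0.98). The groups of HSPB1 did not overlap and each was tight. HSPA4, an HSP110 protein, averaged 215 ± 6.98 CPM after S100A8/S100A9 and 201 ± 2.38 CPM after S100A8 (SD, n = 3 each). In all 7 members (10.6%) were higher and 2 (3.03%) lower in every library, against 4.45% and 4.55% of all genes. The log2 differences of members of at least 5 CPM ran from -0.17 for DNAJC22 and -0.17 for DNAJC6 to 0.19 for DNAJC30 and 0.29 for HSPA12B. A test of any difference among the 4 groups called 0 of 66 members, against 0.222% of all genes (30 genes). It gave 4 of 66 members at an unadjusted p under 0.05, against 5.91% of all genes, and DESeq2's likelihood-ratio test and limma called 0. HSPA1A was called in the fit that also held the replicate number, where 72 of all 13512 genes were called. The smallest p was that of DNAJC22 (adjusted p = 0.487).

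**Figure D4:**
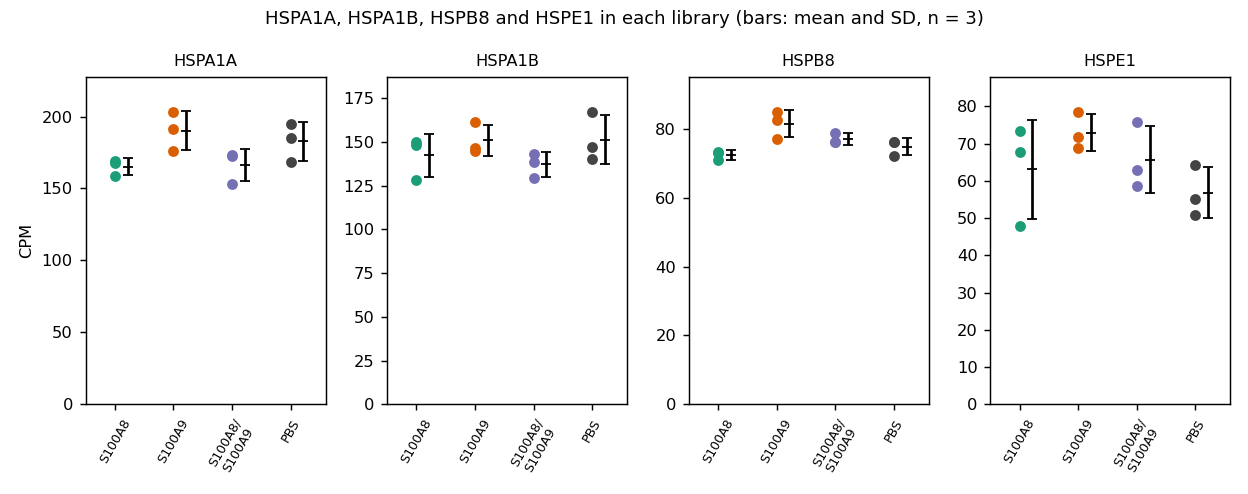
CPM of HSPA1A, HSPA1B, HSPB8 and HSPE1 in each library, on axes from 0, in the groups S100A8, S100A9, S100A8/S100A9 and PBS, with bars at the mean ± SD (n = 3). HSPA1A and HSPB8 are highest after S100A9 (means of 190.1 and 81.6 CPM), HSPA1B overlaps PBS in each treated group, and HSPE1 is highest after S100A9 but scatters.

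Neighbouring genes of the folding pathways gave the same counts with 1 exception. Lists of 25 cytosolic, 22 ER and 13 mitochondrial folding genes that are not members had 0 calls in each comparison with PBS. Between treated groups the single call was MANF, an ER-stress-induced secreted protein that binds HSPA5. MANF had 21.2, 23.3 and 23.9 CPM after S100A8/S100A9, against 29.1, 28.3 and 29.4 CPM after S100A9, and its log2 difference was -0.35 (SE 0.07; adjusted p = 0.0199). The call was lost without S100A9 replicate 1 (adjusted p = 0.0689), replicate 2 (0.0701) or replicate 3 (0.161) and without S100A8/S100A9 replicate 1 (0.181) or replicate 2 (0.0549). It held without S100A8/S100A9 replicate 3 (0.0427). In the fits that lost the call the log2 difference was -0.36 to -0.29.

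Members passed the threshold by replicate number. A model of group plus replicate number called 3 of 66 members by number (4.55%), against 2.59% of all genes (350 genes). At an unadjusted p under 0.05 there were 14 of 66 members, a larger share than the 14.1% of all genes. The labels do not tell what libraries of one number share. HSPH1 had 235, 236, 231 and 230.5 CPM in the number 2 libraries of S100A8, S100A9, S100A8/S100A9 and PBS. All 4 were below the other 8 libraries, which ranged from 242 to 278 CPM. The log2 difference of number 2 from number 1 was -0.17 and the adjusted p over the 3 numbers 0.00394. HSPA2, an HSP70 protein best known from spermatogenesis, had 21.4, 20.6, 22.02 and 22.7 CPM in the number 2 libraries, against 24.6 to 29.5 CPM in the rest. The difference of number 2 from number 1 was -0.31 (adjusted p = 0.00410). These were the 2 members of 66 with all 4 number 2 libraries below the other 8, against 1.26% of all genes.

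The ER member HSPA5 went the other way. It had 712, 706, 642 and 702 CPM in the number 2 libraries of S100A8, S100A9, S100A8/S100A9 and PBS, which was the highest of the 3 libraries in 4 of 4 groups. The difference of number 2 from number 1 was 0.13 (adjusted p = 0.0230), and the 4 libraries overlapped the other 8. HSPA8 was lowest in the number 2 library of 4 of 4 groups but did not pass (adjusted p = 0.142), and next after the called genes came HSPA1A (0.0684) and DNAJC2 (0.0933), a ribosome-associated DNAJ protein. Of the neighbouring genes FKBP5, an immunophilin of HSP90 complexes, was the single call by number. FKBP5 was 0.21 higher on the log2 scale in number 2 than in number 1 (adjusted p = 0.0307).

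The calls, more than the differences, changed when libraries were left out. HSPH1 passed in 9 of 12 fits with 1 library left out and was lost without replicate 2 of PBS (adjusted p = 0.0553), S100A9 (0.0551) or S100A8/S100A9 (0.081), with log2 differences of -0.17 to -0.14 in those fits, against -0.17 with all libraries. HSPA2 passed in 10 of 12 and was lost without replicate 2 of S100A9 (0.0596) or S100A8/S100A9 (0.0564), with differences of -0.29 and -0.28, against -0.31. HSPA5 passed in 6 of 12 and was lost without PBS replicate 2 (0.183), S100A8 replicate 1 (0.0632) or replicate 2 (0.13), or S100A9 replicate 1 (0.147), replicate 2 (0.202) or replicate 3 (0.0595), with differences of 0.10 to 0.13, against 0.13. None of the 3 passed with limma on log2(FPKM + 1), where the adjusted p was 0.176 for HSPH1, 0.129 for HSPA2 and 0.213 for HSPA5. Over all 13512 genes limma called 44 by number, against 350 in the main fit.

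Of the identity markers PAX8 and LUM passed by number, beside the 2.59% of all genes that did. PAX8, a kidney lineage factor, was -0.26 on the log2 scale in number 2 relative to number 1 (adjusted p = 0.000198), as the single call of 10 kidney epithelial genes. LUM, 1 of 3 fibroblast genes that could be tested, was -0.20 (adjusted p = 0.0107). The summed levels over all libraries ran from 1265 to 1409 FPKM for the kidney epithelial genes and from 30.4 to 40.4 FPKM for the fibroblast genes, of which DCN and COL3A1 were near 0 and COL1A2 was listed at 0. Their part in the chaperone values was not tested.

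**Figure D5:**
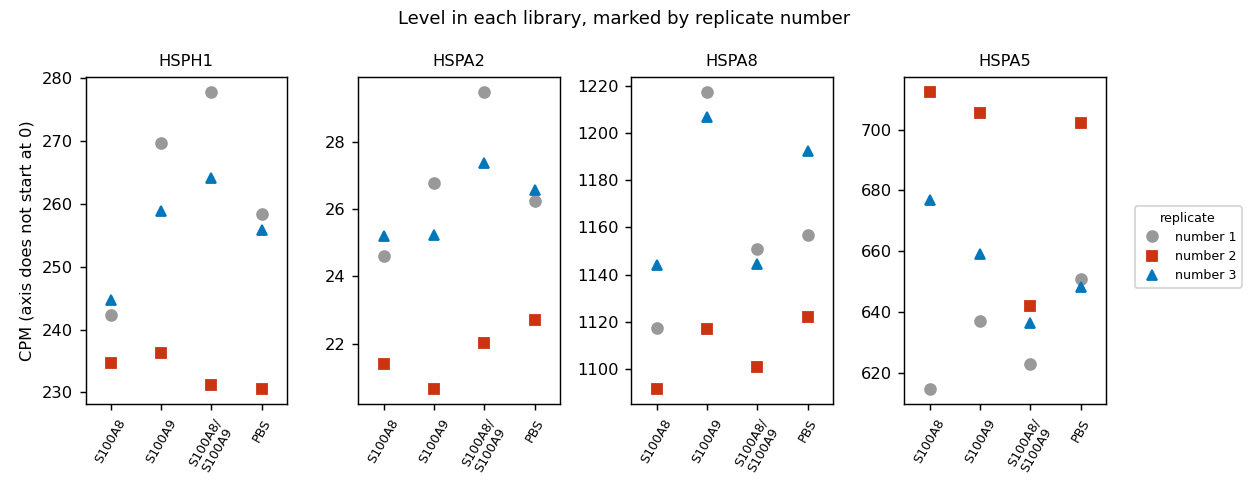
CPM of HSPH1, HSPA2, HSPA8 and HSPA5 in each library, by group (S100A8, S100A9, S100A8/S100A9, PBS) and marked by replicate number (grey circles 1, red squares 2, blue triangles 3); the axes do not start at 0. Number 2 is the lowest in every group for HSPH1, HSPA2 and HSPA8 and the highest for HSPA5.

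Libraries held from 15882193 to 20748334 counts and from 15483 to 15653 genes above 0. The epithelial genes KRT8, KRT18, EPCAM and PAX8 averaged 287, 168, 77.9 and 122 FPKM, and CDH1 0.772 FPKM. Of the proximal tubule genes GGT1 averaged 29.2 FPKM, LRP2, CUBN, AQP1, ANPEP, SLC34A1 and HNF4A were each under 0.2 FPKM, and SLC22A6 and SLC22A8 were listed at 0, so defining transport genes of that segment were near absent. The leukocyte gene PTPRC averaged 0.00417 FPKM, CD68 63.7 FPKM, and endothelial genes summed to at most 0.44 FPKM.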

How the data were processed

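RNA of HK-2 cells was sequenced after poly(A) selection, with 3 libraries in each of 4 groups. The authors deposited a single gene table with counts and FPKM side by side, per the file headers. Its counts, as deposited, are expected counts, since 11.99% of entries were not whole at a tolerance of 1e-09. FPKM is the authors' own scaling by gene length and library total. GRCm38 and mm10, builds of the mouse, stand in the submitters' processing notes, but all 20286 IDs are human Ensembl IDs. Aligner, counter, annotation and strand setting: not given in the sources used here. A table of gene names matched 20228 IDs, GENCODE 29 another 50, and 8 had none. Gene coordinates are those of GENCODE 29 and promoters those of RefSeq, both on GRCh38.

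Expected counts were rounded to integers for edgeR 4.0.16 (R 4.3.3): filterByExpr (minimum count 10, 13512 genes kept), TMM, a robust quasi-likelihood fit of all 12 libraries with 1 coefficient per group (8 residual degrees of freedom, common biological coefficient of variation 4.65%), two-sided tests and Benjamini-Hochberg adjustment over all genes of a comparison. Standard errors and 95% intervals come from that fit. The replicate number was tested in a fit of group plus number (6 residual degrees of freedom). The procedure was tested on simulated data. Library totals of 15882193 to 20748334 counts put the floor of 3 counts for a count of 0 at 0.189 CPM in the smallest library and 0.145 in the largest; floors cover counting error only.

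The members and lists were chosen with earlier results of these data known. Values in every library were given for 22 members chosen by role, and further for members past the threshold and for the 2 highest and 2 lowest changes per comparison among members of at least 5 CPM; other members were named after their values were seen. Alternatives were the replicate block, DESeq2 1.42.0 size factors and tests, no filter, HSPA1A and HSPA1B summed, fits of the compared groups only, limma 3.58.1 on log2(FPKM + 1), and each library left out; the likelihood-ratio test and the block with the summed pair were chosen after seeing the data. The row HSPB2-C11orf52, which RefSeq lists as non-coding, was left out.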

Additional observations from a re-analysis of the deposited data

How the results depend on the processing

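Between groups the count of members past the threshold was 0 in 100 of 103 alternative fits. The exceptions were all with the replicate block, where S100A9 against S100A8, S100A8/S100A9 against S100A9 and any difference among the 4 groups each had a count of 1. That gene was HSPA1A, with log2 differences of 0.20 (adjusted p = 0.0217) and -0.19 (adjusted p = 0.0232). Over 11 alternatives without the block its adjusted p ran from 0.114 to 0.87 and from 0.204 to 0.965, and with the block and HSPA1A and HSPA1B summed it was 0.189 and 0.118. Over all genes the block raised the calls to 2, 42, 2, 69, 0 and 71, against 1, 20, 0, 25, 0 and 34 without it, in the order S100A8, S100A9 and S100A8/S100A9 against PBS, then S100A9 against S100A8, S100A8/S100A9 against S100A8 and S100A8/S100A9 against S100A9. For any difference among the 4 groups the calls over all genes were 72 with the block and 30 without it. Same-numbered libraries of different groups had correlations of their deviations from -0.0739 to 0.151 (median 0.0544), with 2 of 18 pairs over 0.1. Libraries of other numbers had correlations from -0.158 to 0.0954 (median -0.0107). On average 8 of 12 libraries were closest to their own number, so same-numbered libraries were somewhat alike. The labels do not state that the numbers pair the samples, and the fit without the block was kept as the main one.

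The count of members by replicate number, 3, was 0 with limma on log2(FPKM + 1) and ranged from 0 to 5 with a library left out: leaving out replicate 2 gave 1 for PBS, 0 for S100A9 and 1 for S100A8/S100A9, and leaving out replicate 1 of S100A8/S100A9 gave 5. The calls over all genes moved the same way, from 350 to 44 with limma. They were 145, 132 and 220 without replicate 2 of PBS, S100A9 and S100A8/S100A9, and 516 without replicate 1 of S100A8/S100A9. The cause was not tested. Of 2160 values of named members under the alternatives 43 without a call moved by more than their standard error (for the replicate number, by more than their own size), 6 gained and 14 lost a call, and 0 called values changed sign. Of the 2103 values with no call in either fit, 130 changed sign. Depth limits the low members most: the 10 members left untested by the filter averaged at most 0.207 CPM.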
